A study of Homo sapiens with 6 samples.

Results

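The subject is the control state of SCC9 cells transduced with an adenovirus for green fluorescent protein (GFP): which transcripts were abundant, how far each varied between libraries, and which cell-type programmes were present. Members were the 3 GFP libraries, lettered A, B and C, of 6 libraries in the series, and entries that shared a gene symbol were added together, which turned 19921 entries into 19437 genes. SCC9 is an established cell line from a squamous cell carcinoma of the human tongue, grown here in medium with serum and hydrocortisone. Every GFP culture received the control adenovirus at a multiplicity of infection of 25 on the day after plating and was harvested 48 h after transduction. Messenger RNA was selected by poly(A). The labels give transduction in triplicate but no separate passages or days, and no untransduced cells were analysed here, so any effect of the virus itself is part of the baseline. With 1 group there is no contrast and no test, and each difference between libraries below is a description.

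Squamous epithelium is built on basal keratinocytes, which hold keratins 5 and 14, the transcription factor p63 and hemidesmosomes that anchor the cell to the basement membrane. Cells above them stop dividing and switch to other keratins and to envelope proteins. Carcinoma cells can lose these features and take up mesenchymal ones, among them vimentin, N-cadherin and fibronectin, a shift called epithelial-mesenchymal transition (EMT).

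Levels are in CPM, read counts relative to library size, which the authors scaled between libraries by the trimmed mean of M values (TMM). CPM is read within a gene across libraries, and levels of different genes are compared as CPM per kilobase (kb) of exon. Errors are SD over n = 3 libraries. Totals were 915530, 887359 and 894223 CPM in libraries A, B and C. Divided by the smallest value of the library, which stands for no reads, they came to 15380584, 11703661 and 12968132, the nearest measure of depth in the values. That smallest value was 0.0595, 0.0758 and 0.069 CPM, and 793 genes stood at it in every library. A mean of at least 1 CPM was reached by 13245 genes (68.1%), of at least 10 CPM by 9178 (47.2%), of at least 100 CPM by 2046 (10.5%) and of at least 1000 CPM by 72 (0.37%). Protein-coding genes held 98.3%, 97.8% and 97.9% of the total in A, B and C.

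The transcriptome was led by ferritin, translation factors, the cytoskeleton, chaperones and glycolysis. FTH1, the heavy chain of the iron store ferritin, stood at 15000.2, 14365 and 13278 CPM in A, B and C and held 1.58 ± 0.0836% of the total. EEF1A1, the elongation factor that brings aminoacyl-tRNA to the ribosome, had 10312, 8681 and 8292 CPM. TLN1 encodes talin, which links integrins to actin, and had 4375, 4314 and 4615 CPM. Both FTH1 and EEF1A1 were highest in A and lowest in C, whereas TLN1 was highest in C. ACTG1, the cytoplasmic gamma actin, had 3330.0, 3284 and 3241 CPM. TGFBI, a matrix protein induced by transforming growth factor beta, had 2992, 3428 and 3401 CPM. ACTG1 and TGFBI differed by at most 1.15 times between libraries. The 10 highest genes of each library held 5.984%, 6.001% and 5.911% of its total, the highest 100 held 19.35%, 20.17% and 19.999%, and the highest 1000 held 51.4%, 52.0% and 51.8%. FTH1, EEF1A1, the actins and the tubulins have close copies or processed pseudogenes, and their values are uncertain as far as the authors' counting could split reads among them.

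**Figure D1:**
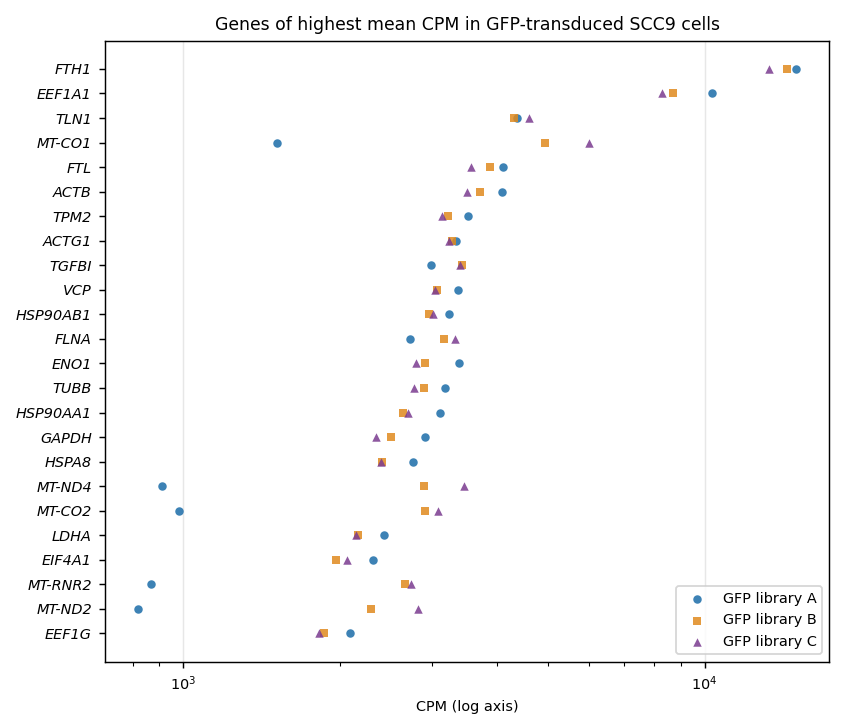
Genes among the 25 of highest mean CPM (rows; 24 are drawn), with the level in each GFP library on a log axis in CPM; each point is 1 library. The libraries lie close together except for the 5 mitochondrial transcripts among them, where library A sits far below B and C (MT-CO1 at 1515, 4941 and 6008 CPM).

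Per length the order changed. A length was found for 16590 genes, among them 98.8% of those with at least 10 CPM, whose median was 11.8 CPM per kb. FTH1 led with 8791 ± 538 CPM per kb, and the ferritin light chain FTL had 4382 ± 310.5 CPM per kb. Between them stood RPL41P1, listed at 4669 ± 347 CPM per kb over 81 bases of exon, a pseudogene whose reads cannot be told from those of the ribosomal protein gene RPL41. Its deposited entry (hg19, chr20:21735866-21736171) is longer than those 81 bases, so its value per kb and its rank are uncertain. Mitochondrial transcripts followed, then RPS18 of the small ribosomal subunit with 2546 ± 103 CPM per kb, and TPM2, the beta tropomyosin that lies along actin filaments, with 2007 ± 126 CPM per kb. ACTB, the cytoplasmic beta actin, had 1891 ± 152 CPM per kb. Talin dropped to rank 85 per length, with 503 ± 18.0 CPM per kb, since its exons span 8823 bases. Of the 12 leaders per length, 12 were the same with the longest transcript as length and 10 with the median transcript.

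Housekeeping lists were present almost whole. All 78 measured ribosomal protein genes had at least 10 CPM, against 47.2% of all genes, and together held 5.79%, 5.78% and 5.37% of the total. Their median was 375 CPM per kb, against 3.60 over all genes with a length. Translation factors (29 of 29), chaperones (24 of 24) and genes of proliferation (34 of 34) were likewise all above 10 CPM. EEF1A2, the elongation factor of muscle and nerve, was the lowest translation factor measured by CPM, with 11.3, 11.2 and 10.2 CPM. Glycolysis passed that level with 21 of 22 genes and held 1.80%, 1.67% and 1.59% of the total. Its leaders were ENO1 (enolase) with 3375, 2905 and 2797 CPM, GAPDH with 2905, 2501 and 2342 CPM and LDHA (lactate dehydrogenase A) with 2433, 2168 and 2149 CPM. The exception below 10 CPM was SLC2A3, a glucose transporter, at 4.33, 3.64 and 5.098 CPM, while the transporter SLC2A1 had 164, 188 and 188 CPM.

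Genes of antioxidant defence reached 10 CPM in 25 of 29 cases (86.2%, against 47.2% of all genes). Their median was 82.0 CPM per kb. SOD2, the mitochondrial superoxide dismutase, had 1739, 1407 and 1353 CPM. TXNRD1, thioredoxin reductase, had 921, 776 and 796 CPM, and NQO1, a quinone reductase, 176, 155 and 152 CPM. All 3 were highest in A. The aldo-keto reductases divided. AKR1B1 had 717, 624 and 579 CPM, but AKR1B10 had 3.10, 2.12 and 2.41 CPM and AKR1C2 0.625, 0.738 and 0.789 CPM. AKR1C1, AKR1C2 and AKR1C3 are near-identical, so reads could be split among them.

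Cytoskeletal genes passed 10 CPM in 39 of 40 cases (97.5%, against 47.2% of all genes). The exception was ACTA2, the smooth muscle actin, at 0.952, 0.607 and 0.965 CPM, whereas the calponin CNN1 of smooth muscle had 15.6, 14.0 and 12.9 CPM. Among intermediate filaments, vimentin (VIM) had 836 ± 58.8 CPM per kb. KRT81, a hair keratin, had 219 ± 28.4 CPM per kb. The simple epithelial keratins KRT8 and KRT18 had 45.1 ± 4.41 CPM per kb and 38.9 ± 1.78 CPM per kb. By library, KRT81 had 481, 413 and 373 CPM, and KRT8 had 228, 205 and 188 CPM. Both were highest in A and lowest in C. KRT81 has close relatives in the same cluster of hair keratin genes, and its value is uncertain in that respect.

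Mesenchymal markers stood high. Of 20 measured genes of this list, 15 had at least 10 CPM (75%, against 47.2% of all genes) and 8 at least 100 CPM. The median was 11.2 CPM per kb. VIM had 1677, 1551 and 1459 CPM. FN1, fibronectin, which cells bind through integrins, had 875, 1169.9 and 1321 CPM. AXL, a receptor kinase linked to EMT, had 514, 530.1 and 556 CPM. Of these 3, FN1 varied most, with library A below B and C, and VIM was highest in A. The repressors of epithelial genes were present as well. SNAI2 (Slug) had 194, 183 and 184 CPM, ZEB2 66.0, 65.7 and 70.0 CPM, ZEB1 25.2, 25.3 and 27.7 CPM and TWIST1 23.8, 19.6 and 19.3 CPM. The other 5 of the 20 listed genes were under 1 CPM on average. Among them, SNAI1 was near the floor with 0.476, 0.455 and 0.138 CPM, as was TWIST2 with 0.0595, 0.152 and 0.345 CPM. CDH2, N-cadherin, had 154, 171 and 176 CPM.

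Transcripts usual in fibroblasts were found too. COL1A1, a chain of type I collagen, had 302, 406 and 429 CPM, lowest in A. LUM (lumican) and DCN (decorin), small proteoglycans of collagen fibres, had 92.4, 94.0 and 105 CPM and 60.8, 50.5 and 52.1 CPM. Of 13 measured fibroblast markers 6 had at least 10 CPM (46.2%), near the share of all genes. The list median was 1.01 CPM per kb, below the 3.60 of all genes. Those below 1 CPM on average were ACTA2, THY1 (0.952, 0.758 and 0.552 CPM), POSTN (0.179, 0.455 and 0.276 CPM) and the lymphatic and fibroblast glycoprotein PDPN (0.714, 0.834 and 1.24 CPM). PDGFRA, a growth factor receptor of fibroblasts, had 1.19, 1.29 and 1.30 CPM. In bulk RNA a few cells with much of a transcript and many cells with little of it cannot be told apart, and this holds for every marker here.

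Epithelial markers stood low. Of 25 measured, 3 had at least 10 CPM (12%): KRT8, KRT18 and AP1M2, an adaptor subunit of polarized sorting, with 12.3, 11.1 and 11.4 CPM. The median was 0.41 CPM per kb, below the 3.60 of all genes. CDH1, E-cadherin of adherens junctions, had 1.73, 1.21 and 0.276 CPM. EPCAM, an epithelial adhesion molecule, had 3.33, 3.41 and 2.21 CPM. GRHL2, a transcription factor that maintains epithelial junctions, had 0.952, 0.607 and 0.069 CPM. In all 3 genes library C was the lowest. The splicing factor ESRP1, which sets epithelial isoforms, had 1.96, 1.82 and 0.138 CPM, and ESRP2 1.79, 1.90 and 1.03 CPM. Per length, the N-cadherin gene CDH2 stood at 37.6 ± 2.68 CPM per kb and CDH1 at 0.215 ± 0.148 CPM per kb.

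The basal keratinocyte list was present in part. Of 20 measured, 8 had at least 10 CPM (40%, against 47.2% of all genes), with a median of 1.54 CPM per kb. DST, a large plakin that includes the hemidesmosomal form, had 203, 274 and 313 CPM. DSC3, a desmosomal cadherin, had 54.3, 61.6 and 70.5 CPM, S100A2, a calcium-binding protein of basal cells, 51.3, 50.7 and 45.1 CPM, and BNC1 (basonuclin), a zinc finger protein of basal cells, 41.4, 36.02 and 42.3 CPM. Of these, S100A2 was lowest in C, within a range of 1.14 times. TP63 had 0.893, 0.91 and 0.138 CPM. KRT14 had 3.57, 1.52 and 0.069 CPM, and its partner KRT5 had 21.7, 17.2 and 0.414 CPM. Both keratins were above 1 CPM in A and B and below 1 CPM in C, and KRT5 was above 10 CPM in A and B. Above the basal layer, 1 of 18 measured genes reached 1 CPM. That gene was KRT10, the keratin of suprabasal cells, with 38.0, 44.7 and 40.3 CPM, and 8 of the 18, among them IVL (involucrin) and KRT16, were at the smallest value in every library. For the labelled origin, a squamous carcinoma, these lists give 8 of 20 basal, 3 of 25 epithelial and 1 of 18 suprabasal genes at 10 CPM or more. These counts leave out listed genes absent from the deposited values, where 20 of 20 basal, 25 of 26 epithelial and 18 of 33 suprabasal genes were present.

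**Figure D2:**
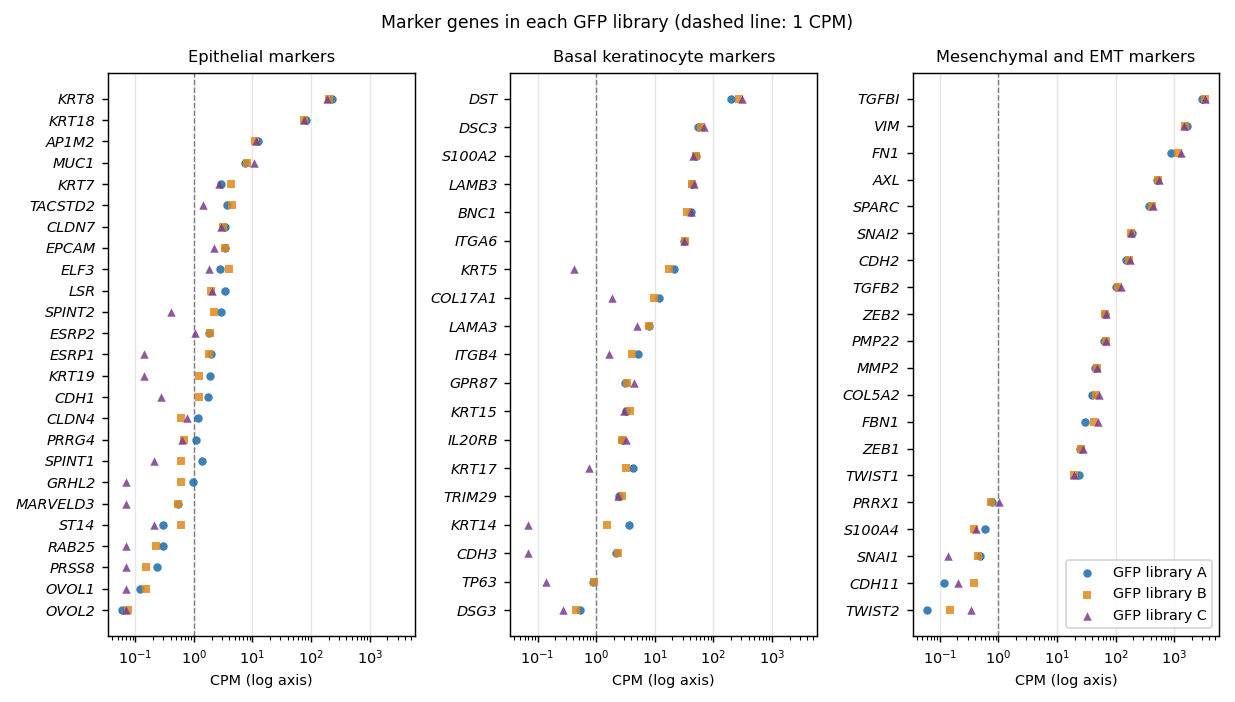
Epithelial, basal keratinocyte (19 of 20 drawn) and mesenchymal marker genes (rows of the 3 panels), with the level in each GFP library on a log axis in CPM; the dashed line is 1 CPM. Mesenchymal markers reach 3274 CPM on average (TGFBI) and most epithelial markers lie below 10 CPM, with library C to the left for several epithelial and basal genes.

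Markers of other cell types had list medians below the 3.60 CPM per kb of all genes. They were 0.160 for endothelial, 0.0974 for leukocyte and 0.164 CPM per kb for melanocyte genes. Nerve and glia had 0.729 and muscle 0.848 CPM per kb, above the 0.41 of epithelial markers. The lists name 12 endothelial, 16 leukocyte, 8 melanocyte, 11 nerve and glia and 10 muscle genes, of which 8, 7, 3, 6 and 4 were measured. Unmeasured genes are left out of these medians, whereas 25 of 26 epithelial genes were measured, so the order of the medians is uncertain. Endothelial genes reached 1 CPM in 2 of 8 cases, TIE1 with 7.62, 6.90 and 7.17 CPM and ROBO4 with 5.00, 4.17 and 3.52 CPM, while CDH5 (VE-cadherin) had 0.238, 0.152 and 0.069 CPM and VWF (von Willebrand factor) 0.119, 0.152 and 0.069 CPM. Of 7 measured leukocyte genes, LCP1 (plastin-2) alone passed 1 CPM, with 89.9, 71.2 and 75.2 CPM, and CD14 had 0.417, 0.227 and 0.276 CPM. MITF, the melanocyte factor with forms in other cells, had 19.3, 18.1 and 18.1 CPM, but PMEL (a melanosome protein) 0.536, 0.379 and 0.483 CPM and TYRP1 (an enzyme of pigment) 0.119, 0.0758 and 0.069 CPM. The neuronal tubulin TUBB3 had 32.6, 32.3 and 30.2 CPM and the light neurofilament NEFL 28.3, 26.5 and 26.1 CPM, with NEFM at 0.119, 0.0758 and 0.207 CPM. Of 4 measured muscle genes 3 reached 1 CPM, led by TNNT1 (slow troponin T) with 7.86, 9.10 and 6.83 CPM, and CKM (creatine kinase) was at the smallest value in each library.

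Matrix genes were broadly present and spanned a wide range. Of 39 measured laminins, collagens and matrix glycoproteins, 30 had at least 10 CPM (76.9%, against 47.2% of all genes). SPARC, which binds collagen, had 376, 415 and 429 CPM. LAMC1, the common gamma chain of laminins, had 310.3, 400.0 and 427 CPM. COL7A1, the anchoring fibril collagen of basement membranes, had 126, 249.9 and 259 CPM. Each was lowest in A, and COL7A1 differed by over 2 times between A and C. LAMB3 and LAMA3, laminin chains of keratinocytes, were lower than LAMC1 per length, with 9.97 ± 0.457 CPM per kb and 0.632 ± 0.153 CPM per kb against 48.1 ± 7.76 CPM per kb. By library LAMB3 had 43.3, 43.9 and 47.1 CPM. LAMA3 had 7.86, 8.04 and 5.03 CPM and was lowest in C.

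The integrins at 10 CPM or more numbered 10 of 16 (62.5%, against 47.2% of all genes). ITGB1, the common beta chain, had 665, 679 and 726 CPM. ITGA5, the fibronectin receptor chain, had 244, 298 and 318 CPM. ITGAV had 208, 221 and 246 CPM and ITGA3, which binds laminin, 163, 194 and 192 CPM. Of the hemidesmosomal pair, ITGA6 had 31.2, 32.4 and 31.4 CPM and ITGB4 5.18, 4.17 and 1.65 CPM. ITGA6 was level across libraries, and ITGB4 was lowest in C. ITGB6, the epithelial partner of ITGAV, had 1.25, 2.05 and 0.552 CPM.

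Among proteases and inhibitors, 20 of 29 passed 10 CPM (69%, against 47.2% of all genes). MMP14, the membrane-bound metalloprotease, had 146, 179.5 and 186 CPM and the inhibitor TIMP2 264, 278 and 281 CPM. The secreted collagenase MMP1 had 0.179, 0.303 and 0.138 CPM, the stromelysin MMP3 0.417, 0.152 and 0.414 CPM and the gelatinase MMP9 0.238, 0.531 and 0.483 CPM. MMP10, MMP13, MMP28 and the inhibitor TIMP3 were also below 1 CPM on average. PLAU (urokinase) had 30.1, 32.5 and 32.2 CPM and its receptor PLAUR 15.3, 15.2 and 12.8 CPM. SERPINB2, an inhibitor of urokinase, had 1544, 1359 and 1349.7 CPM. Per length, SERPINB2 stood at 653 ± 50.3 CPM per kb and PLAU at 11.8 ± 0.486 CPM per kb.

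Cell junction genes reached 10 CPM in 17 of 33 cases (51.5%), near the 47.2% of all genes. CTNNB1, beta-catenin, had 427, 392 and 376 CPM, and CTNNA1, alpha-catenin, 354, 314 and 329 CPM. The desmosomal cadherin DSG2 had 214, 222 and 249 CPM and desmoplakin (DSP) 38.3, 45.04 and 45.9 CPM. Catenins and these desmosomal genes differed by at most 1.20 times between libraries. JUP, plakoglobin, had 3.04, 2.12 and 1.17 CPM and PKP1, a plakophilin of keratinocytes, 1.25, 1.06 and 0.69 CPM, both lowest in C.

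Per length, receptors were led by AXL, with 109 ± 4.32 CPM per kb, followed by MET, the hepatocyte growth factor receptor, with 50.4 ± 4.31 CPM per kb, and IGF2R, which clears insulin-like growth factor 2, with 43.8 ± 8.73 CPM per kb. By library IGF2R had 487, 628 and 731 CPM. EGFR had 294, 364 and 429.8 CPM and MET 312, 330.2 and 369 CPM. All 3 were lowest in A and highest in C. Among relatives of EGFR, ERBB2 had 73.3, 86.1 and 80.7 CPM, while ERBB3 had 0.774, 0.607 and 0.414 CPM and ERBB4 0.0595, 0.152 and 0.069 CPM. FGFR1 had 108, 119 and 117 CPM and FGFR2, whose epithelial form is usual in keratinocytes, 0.119, 0.0758 and 0.069 CPM. Of 37 measured receptors 22 had at least 10 CPM (59.5%). Among secreted factors 26 of 57 passed that level (45.6%), near the 47.2% of all genes. MIF, a cytokine, had 167 ± 19.09 CPM per kb, MDK (midkine), a heparin-binding growth factor, 76.4 ± 5.74 CPM per kb and INHBA, the activin A subunit, 22.8 ± 2.11 CPM per kb. AREG, an EGFR ligand, had 55.4, 53.6 and 58.8 CPM, whereas TGFA had 0.238, 0.303 and 0.207 CPM and EGF 0.417, 0.758 and 0.965 CPM. IL8 (CXCL8), a neutrophil attractant, had 142, 139 and 133 CPM and IL6 51.1, 59.0 and 55.9 CPM.

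The transcription factors that the series was designed around were measured in the control state. TEAD1 had 24.1 ± 2.19 CPM per kb and the co-activators YAP1 28.98 ± 1.67 CPM per kb and WWTR1 7.85 ± 0.684 CPM per kb. TEAD3, TEAD4 and TEAD2 were lower than TEAD1, with 10.1 ± 0.792 CPM per kb, 12.2 ± 1.43 CPM per kb and 5.90 ± 0.516 CPM per kb. Of 42 measured genes of YAP, TAZ, TEAD and their targets 38 had at least 10 CPM (90.5%, against 47.2% of all genes). Per length the matricellular target CYR61 stood at 217 ± 34.0 CPM per kb, its relative CTGF at 11.3 ± 2.11 CPM per kb and the ankyrin protein ANKRD1 at 40.4 ± 2.21 CPM per kb. By library CYR61 had 408, 524 and 556 CPM and CTGF 20.8, 29.7 and 28.96 CPM, both lowest in A. VGLL3, a cofactor that binds TEAD, had 131, 119 and 133 CPM, and VGLL1 0.179, 0.152 and 0.069 CPM.

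Among growth transcription factors, HMGA1, an architectural protein of chromatin, had 407 ± 52.5 CPM per kb, and the AP-1 member FOSL1 137 ± 5.63 CPM per kb. JUN had 96.2, 96.9 and 100.3 CPM and FOSL2 133, 147 and 146 CPM. FOS was near the floor with 0.298, 0.227 and 0.759 CPM. MYC had 31.2, 27.2 and 31.9 CPM. Of 36 measured squamous and epithelial lineage factors, 10 had at least 10 CPM (27.8%), below the 47.2% of all genes. CEBPB, a factor of keratinocyte differentiation and inflammation, had 88.1, 90.2 and 78.0 CPM, KLF5 67.9, 66.8 and 71.3 CPM, TFAP2A 44.7, 44.7 and 49.99 CPM and the head and foregut factor FOXE1 21.2, 20.7 and 22.9 CPM. SOX2, a squamous lineage factor, had 0.952, 1.06 and 0.483 CPM and ZNF750, a differentiation factor, was at the smallest value in every library. Of 35 measured HOX genes 5 had at least 10 CPM (14.3%). They were HOXB7, HOXB9, HOXC10, HOXD8 and HOXC13, from 10.2 ± 0.848 CPM to 22.1 ± 2.84 CPM.

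Of 30 measured cyclins, CDKs and CDK inhibitors 22 had at least 10 CPM (73.3%, against 47.2% of all genes). Another 4 were under 1 CPM, and the list median was 11.2 CPM per kb. TOP2A, topoisomerase of dividing cells, had 716, 635 and 678 CPM and the proliferation antigen MKI67 326, 379 and 435 CPM. CDK4 had 306, 249.7 and 236 CPM and its partner CCND1 (cyclin D1) 55.3, 43.7 and 47.2 CPM. CDK4 was highest in A, and MKI67 was lowest there. CDKN2A and CDKN2B, inhibitors of CDK4 that lie side by side on chromosome 9, had 1.25, 0.91 and 0.69 CPM and 0.536, 0.91 and 0.69 CPM. Their neighbour MTAP, an enzyme of methionine salvage, had 39.2, 36.3 and 37.3 CPM. NOTCH1 had 3.81, 3.72 and 3.45 CPM, but NOTCH2 had 309, 396 and 452 CPM. NOTCH2 has partial copies nearby, and its value is uncertain in that respect. Of the genes often altered in oral squamous carcinoma, 31 of 38 had at least 10 CPM (81.6%, against 47.2% of all genes). BIRC3, an inhibitor of apoptosis, had 489, 462 and 479.6 CPM and its neighbour BIRC2 169.7, 151 and 162 CPM. MDM2, a ubiquitin ligase, and CDKN1A (p21), a CDK inhibitor, had 111, 105 and 112 CPM and 54.8, 49.5 and 44.6 CPM.

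Most histone messages of the HIST clusters carry no poly(A) tail and are seen only in part in poly(A) RNA. Of 28 measured histone genes, 9 had at least 10 CPM (32.1%, against 47.2% of all genes), none of them named in a HIST cluster. They were led by H2AFZ with 492 ± 24.8 CPM per kb and H3F3B with 174 ± 17.4 CPM per kb. Cluster genes had less, with HIST1H2BK at 6.37, 6.22 and 6.13 CPM and HIST1H4C at 0.119, 0.758 and 0.207 CPM.

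Of 37 measured interferon response genes 13 had at least 10 CPM (35.1%, against 47.2% of all genes) and 29 at least 1 CPM (78.4%, against 68.1%). Their median was 6.49 CPM, against 7.73 CPM over all genes. ISG15, a ubiquitin-like modifier, had 13.6, 13.1 and 10.5 CPM. IFIT1 had 4.05, 3.79 and 2.48 CPM and MX1 1.96, 2.35 and 0.483 CPM, both antiviral effectors. MX1 and BST2 (tetherin, 3.39, 2.27 and 0.069 CPM) were lowest in C. Antigen presentation genes reached 10 CPM in 15 of 25 cases (60%). B2M, the class I light chain, had 239.8, 274 and 259 CPM and HLA-B 30.9, 30.2 and 29.3 CPM. HLA genes are polymorphic and alike, and their values are uncertain where reads were split. The class II genes HLA-DRA and CIITA, their regulator, had 0.119, 0.0758 and 0.069 CPM and 0.179, 0.0758 and 0.069 CPM. CD274, the checkpoint ligand PD-L1, had 9.88, 10.4 and 13.4 CPM.

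The medium held hydrocortisone, and NR3C1, the glucocorticoid receptor, had 125, 116 and 126 CPM. FKBP5, a receptor co-chaperone induced by glucocorticoids, had 443, 386 and 381 CPM. TSC22D3, the glucocorticoid-induced leucine zipper protein, had 86.0, 76.6 and 74.2 CPM, and PER1 76.8, 90.4 and 90.1 CPM. MT2A, a metallothionein with near-identical relatives, had 529.6, 446 and 395 CPM. FKBP5, TSC22D3 and MT2A were highest in A, and PER1 was lowest there. In all 17 of 25 genes of this list had at least 10 CPM (68%, against 47.2% of all genes). PDK4 (0.298, 0.227 and 0.276 CPM) and IGFBP1 (0.119, 0.0758 and 0.138 CPM) were at the low end. No culture without hydrocortisone was analysed here. For entry of the adenovirus, the attachment receptor CXADR had 11.3, 12.5 and 13.2 CPM and the complement regulator CD46, a receptor of other adenovirus types, 59.2, 68.2 and 60.6 CPM. The internalization integrins ITGAV and ITGB5 had 225 ± 19.3 CPM and 52.2 ± 0.75 CPM.

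The 3 libraries were close for most genes. Over the 9178 genes with at least 10 CPM, the median coefficient of variation was 7.01% and the median SD of log2(CPM + 1) was 0.0988. The coefficient was 15.7% for genes from 1 to 10 CPM, 7.23% from 10 to 100 CPM, 6.34% from 100 to 1000 CPM and 8.10% above. CTR9, a subunit of the PAF complex of RNA polymerase II, was the steadiest gene above 100 CPM, with 168, 167 and 168 CPM. GEMIN4, of the SMN complex, had 105, 105 and 105 CPM, CALM2 (calmodulin) 365, 368 and 366 CPM and the syndecan SDC4 411, 413 and 409 CPM. These 4 genes, picked for low variation among the 2046 with at least 100 CPM, varied by 1.01 times or less between libraries. The 29 common reference genes had a median coefficient of variation of 7.40%, near the 7.01% of all genes with at least 10 CPM. GAPDH ranged by 1.24 times, ACTB by 1.17 times and TBP, the TATA-binding protein, by 1.11 times, with 35.2, 32.2 and 31.7 CPM.

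A range of at least 2 times between the highest and lowest library was found in 47 of those 9178 genes (0.512%), and in 45 of them the lowest library was A. Without library A the count was 2, and the median SD 0.0595. Of the 47, 15 carry mitochondrial gene names. The 13 mitochondrial protein-coding transcripts held 0.781% of the total in A, 2.45% in B and 2.82% in C. MT-ND6, on the other strand of the mitochondrial genome, had 32.9, 101 and 141 CPM, and MT-CYB, cytochrome b, 547, 1636 and 1956 CPM. Each of the 13 was lowest in A. The median log2 ratio of A was -1.58 to B and -1.79 to C, and that of B to C was -0.22.

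Among long noncoding RNAs with at least 10 CPM, library A was the lowest in 11 of 17 and the highest in the other 6. NEAT1, the scaffold of paraspeckles, had 217, 458 and 483 CPM. MALAT1, of nuclear speckles, had 127, 269 and 300.2 CPM. RN7SL2, the cytoplasmic RNA of the signal recognition particle, had 32.4, 107 and 71.7 CPM. These 3 were picked from the genes with a 2-fold range, and A was lowest in each, by more than 2 times against either other library. The entries hsa-mir-6723, RP5-857K21.7 and RP5-857K21.11 on chromosome 1, which lie in a nuclear copy of mitochondrial DNA, were lowest in A as well. The first had 86.0, 281 and 349.9 CPM, the next 5.68, 21.3 and 14.7 CPM and the last 7.04, 17.4 and 21.1 CPM. RP5-857K21.7 was higher in B than in C, unlike the other two.

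Gene lists differed in where library A stood. Matrix genes were lowest in A in 28 of 30 cases, against 24.5% of all genes with at least 10 CPM, and the median log2 ratio of A to C was -0.42. Integrins were lowest there in 9 of 10 cases, with a median of -0.11. Receptors were lowest in A in 14 of 22, with a median of -0.13. In the other direction, A was the highest library for 24 of 25 antioxidant genes, 29 of 34 proliferation genes, 24 of 29 translation factors and 55 of 78 ribosomal protein genes, against 55.8% of all genes. The median log2 ratio of A to C for these 4 lists was 0.21, 0.14, 0.15 and 0.15, and 0.07 over all genes. The ratio also moved with exon length, from 0.17 in 258 genes up to 1000 bases and 0.18 in 1200 genes from 1000 to 2000 bases to -0.05 in 1042 genes over 8000 bases. B against C ran from 0.10 to -0.10 over the same span. AHNAK, a giant scaffold protein gene with 19246 bases of exon, had 651, 1020.4 and 1187 CPM. Median-ratio scaling would move A by -0.04 and C by 0.01 on the log2 scale, which turns the sign of none of these ratios. The part of exon length, or of mitochondrial RNA, in the list differences was not tested.

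**Figure D3:**
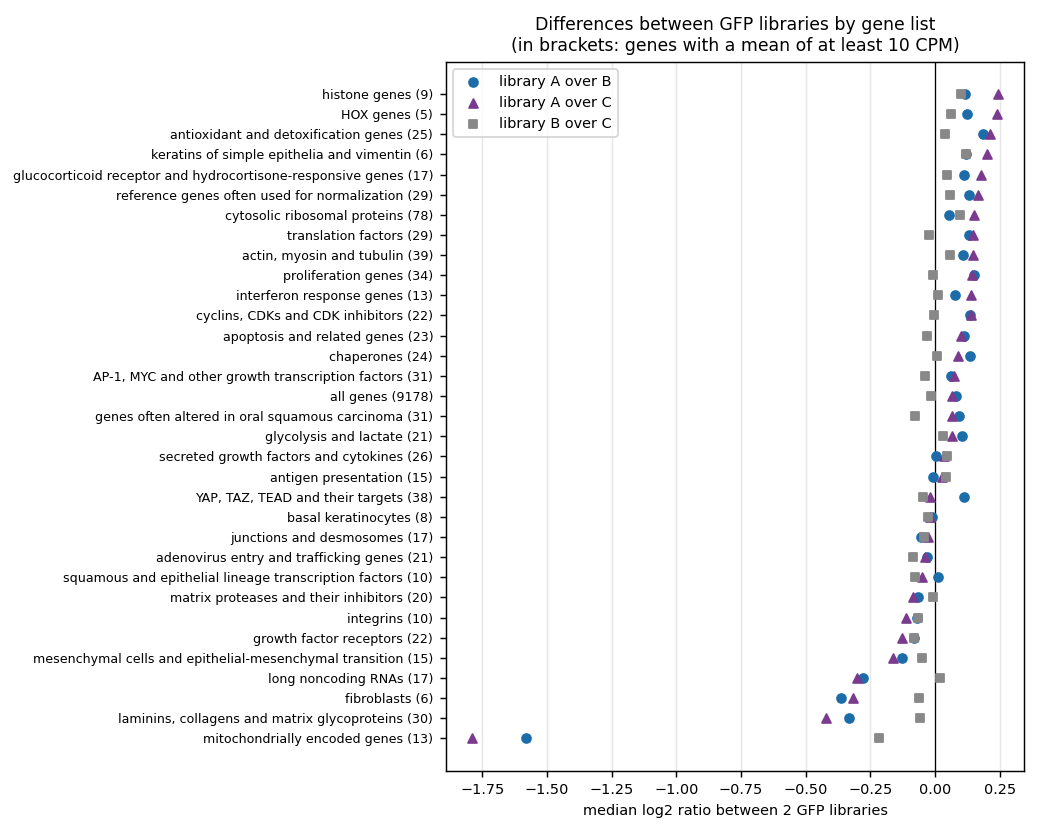
Median log2 ratio between pairs of GFP libraries (horizontal axis) for each gene list (rows), over its members with a mean of at least 10 CPM, whose number is in brackets. Mitochondrial genes are far lower in A (median log2 ratio -1.58 to B and -1.79 to C), matrix genes are lower (-0.33 and -0.42), and B and C differ little for most lists.

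Library C was far below both others in a small set of genes, of which the larger part are epithelial or basal markers. In 16 of 13245 genes with at least 1 CPM (0.121%), C was at least 4 times below both other libraries, against 6 genes (0.0453%) each for A and B. The order depended on the threshold: at 2 times A had 120 genes and C 60, at 3 times A had 30 and C 25, without a filter on level A had 84 and C 81, and with the highest entry of a symbol only the counts were 48, 53 and 55 for A, B and C. The reverse, a library at least 4 times above both others, held in 0 genes (0%) for A, 3 (0.0227%) for B and 1 (0.00755%) for C. The epithelial and basal marker lists hold 15 and 18 of the 13245 genes with at least 1 CPM. Of the 16 genes of C, 9 belong to these 2 lists: KRT5, KRT14, KRT17, KRT19, CDH1, CDH3, COL17A1, ESRP1 and SPINT2. The other 7 include the interferon-induced genes MX1 and BST2, and the median of the interferon list was 8.45, 6.37 and 4.96 CPM in A, B and C. None of the 6 genes of A or of the 6 of B was on these lists. CDH3, P-cadherin, had 2.14, 2.35 and 0.069 CPM. COL17A1, the transmembrane collagen of hemidesmosomes, had 11.9, 9.63 and 1.86 CPM. L1CAM, an adhesion molecule, had 6.19, 4.85 and 0.414 CPM, and the vesicle protein MAL2 of polarized epithelia 1.79, 2.73 and 0.069 CPM. In C, CDH3, MAL2, KRT14 and BST2 were at the smallest value.

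By a milder measure, at most 0.5 times both others, library C was low in 5 of 15 epithelial and 6 of 18 basal markers with at least 1 CPM (33.3% each), against 60 of all 13245 genes (0.453%). None of 15 mesenchymal and 9 fibroblast markers met it. The lists are not matched in level. All 15 mesenchymal markers had at least 10 CPM, as did 6 of the 9 fibroblast, 3 of the 15 epithelial and 8 of the 18 basal markers. A 2-fold range between libraries was found in 10.9% of genes from 1 to 10 CPM and 0.512% of those with at least 10 CPM. SPINT2, an inhibitor of epithelial serine proteases, had 2.86, 2.20 and 0.414 CPM, and KRT17 4.29, 3.26 and 0.759 CPM. Over all 25 epithelial markers, C was the lowest library in 19 (76%) and at most 0.5 times both others in 10, and C was the lowest in 35.9% of all genes with at least 1 CPM. The 2 sets are unlike, since 10 of the 25 markers were under 1 CPM, where a value rests on few reads. Shares over all genes without a filter on level were not counted for these measures. A few epithelial genes, picked after their values were seen, differed little. KRT8, KRT18, AP1M2 and CLDN7 (a claudin, 3.33, 3.18 and 2.90 CPM) differed by at most 1.21 times between the 3 libraries. Most of the genes low in C were below 5 CPM in A and B, and KRT5 and COL17A1 were the 2 above a mean of 5 CPM. The genes with at least 5 CPM whose pattern over the 3 libraries was most like KRT5, by distance on a log2 scale, were COL17A1, then CBWD3 and AC009245.3 at larger distances. The mitochondrial share was highest in C, and the part of depth or RNA quality in these differences was not tested. Fewer cells with these transcripts in C and less RNA in each cannot be told apart.

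**Figure D4:**
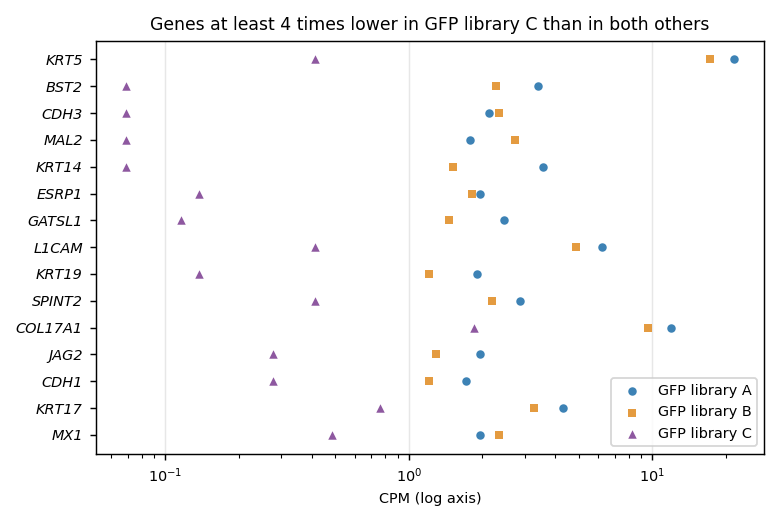
Genes with a mean of at least 1 CPM in which GFP library C is at least 4 times below both other libraries (rows; 15 of the 16 are drawn), with the level in each library on a log axis in CPM. Libraries A and B lie closer to each other than to C, widest apart for KRT14 (3.57 and 1.52 CPM), and C lies between the smallest value, 0.069 CPM, and 1.86 CPM (COL17A1).

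Several leading genes are neighbours on chromosome 9. In windows of 15 neighbouring protein-coding genes with at least 1 CPM, a scan chosen after the leaders were seen, the highest of 10988 windows ran from VCP to GBA2 (hg19, chr9:35056061-35749983). Its median was 68.1 CPM per kb, against 7.65 over all windows. Of its 15 genes 12 had at least 100 CPM, against 17.1% of 11310 placed genes. The 15 genes before it had a median of 19.8 and the 15 after it 29.98 CPM per kb. The window was picked as the highest by these same levels, so its differences from all genes and from its flanks follow from that choice. The window held 1.60%, 1.57% and 1.57% of the total in A, B and C. VCP, an ATPase that extracts ubiquitinated proteins, stood at 723 ± 42.6 CPM per kb (chr9:35056061-35073246, minus strand), and STOML2, a mitochondrial membrane protein, at 649 ± 62.9 CPM per kb. TPM2 (chr9:35681989-35691017, minus strand) and TLN1 (chr9:35696945-35732392, minus strand) lie next to each other. CREB3, a membrane-bound transcription factor, stood at 307 ± 21.3 CPM per kb and GBA2, a glucosylceramidase, at 107 ± 10.7 CPM per kb. CLTA, the clathrin light chain further along, had 1293 ± 116 CPM per kb. Next among windows that did not overlap came AP5B1 to SF3B2 on chromosome 11, with 51.4 CPM per kb. DNA copy number was not measured.

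**Figure D5:**
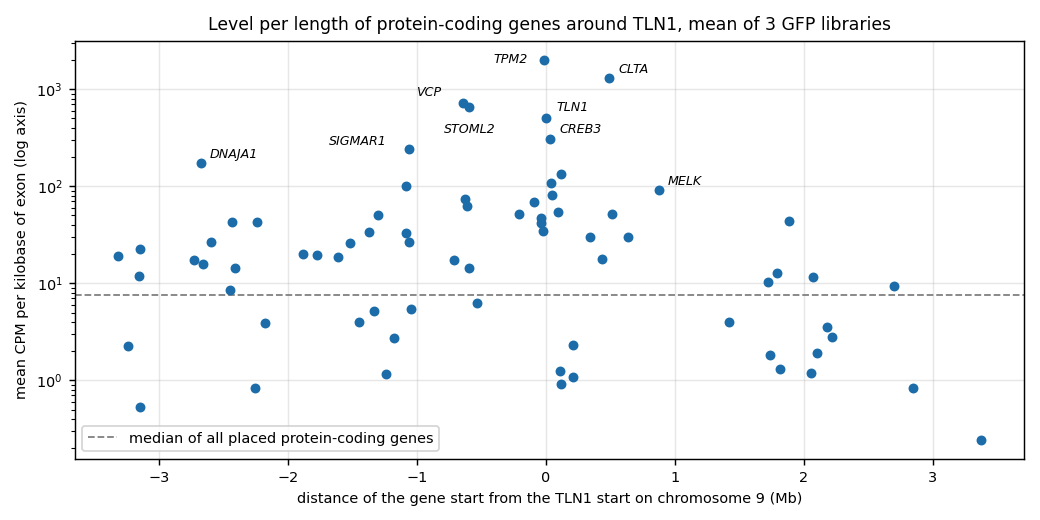
Protein-coding genes with at least 1 CPM around TLN1 on chromosome 9, with distance of the gene start from that of TLN1 in Mb (horizontal axis) and mean CPM per kb of exon over 3 GFP libraries (vertical, log axis); the dashed line is the median of all placed genes, 7.58 CPM per kb. From VCP to CLTA most genes lie above the line, and TPM2 is highest at 2007 CPM per kb.

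Promoters of abundant genes more often held a GC box. RefSeq promoters (GRCh38.p14, 250 bases before to 50 after the start) were matched by symbol to 11371 genes. Those of 3 high-level genes with different elements are shown from 250 bases before to 30 after the start, 5′ to 3′ on the strand of the gene: FN1 and TPM2 for their GC boxes, and SERPINB2 for its TATA box. Capitals mark GGGCGG (the GC box) in FN1 and TPM2 and TATAAA (the TATA box) in SERPINB2.
FN1 (chr2:215436039-215436318, minus strand): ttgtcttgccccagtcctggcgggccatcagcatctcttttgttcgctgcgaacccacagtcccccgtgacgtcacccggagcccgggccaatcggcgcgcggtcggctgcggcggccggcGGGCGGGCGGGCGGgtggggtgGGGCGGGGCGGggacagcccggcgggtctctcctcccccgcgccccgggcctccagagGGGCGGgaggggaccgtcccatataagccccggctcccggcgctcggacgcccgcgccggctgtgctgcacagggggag
TPM2 (chr9:35690027-35690306, minus strand): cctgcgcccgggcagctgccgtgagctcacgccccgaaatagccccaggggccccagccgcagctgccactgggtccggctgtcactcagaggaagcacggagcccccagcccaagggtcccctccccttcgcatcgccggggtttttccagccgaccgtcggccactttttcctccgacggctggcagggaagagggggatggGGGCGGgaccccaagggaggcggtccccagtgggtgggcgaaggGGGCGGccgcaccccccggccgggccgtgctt
SERPINB2 (chr18:63887455-63887734, plus strand): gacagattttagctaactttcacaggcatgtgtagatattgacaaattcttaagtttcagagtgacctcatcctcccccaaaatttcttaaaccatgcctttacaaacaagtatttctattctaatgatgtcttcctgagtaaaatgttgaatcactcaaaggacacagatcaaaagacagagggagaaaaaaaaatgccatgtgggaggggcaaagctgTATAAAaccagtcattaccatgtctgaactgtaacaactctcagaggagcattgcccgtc
FN1 held 6 GC boxes, of which the first 3 overlap, as do the next 2, and the nearest began 49 bases before the start. TPM2 held 2, the nearest 2 bases before the start, and SERPINB2 held TATAAA 30 bases before it. On either strand, GGGCGG was found in 53.1% of the promoters of 2141 genes under 1 CPM and 66.5% from 1 to 10 CPM. It was found in 71.5% from 10 to 100 CPM, 73.4% from 100 to 1000 CPM and 81.1% of 53 genes above. Its share was 67.4% over the 11371 matched genes, from which these levels are drawn, and 44.6% over all 27305 promoters. TATAAA was found in 10.3%, 6.01%, 4.69%, 5.66% and 13.2% over the same levels, in 6.16% of the matched genes and in 11.95% of all promoters. The AP-1 motif TGACTCA was found in 5.51%, 3.33%, 2.65%, 3.50% and 1.89%, in 3.43% of the matched genes and in 4.92% of all promoters. The GC box thus followed level in each step, TATAAA was most frequent at both ends, and the top level rests on 7 genes with TATAAA. Base composition was not taken into account. A match is a run of letters in this window and does not show that a factor binds there.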

How the data were processed

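Poly(A) RNA of 3 GFP libraries of SCC9 cells was analysed, grouped by title (A, B and C). The authors deposited CPM values scaled by TMM, with a small value in place of 0. Per the labels' protocols, library preparation used a TruSeq mRNA kit. Trimmomatic 0.36, STAR 2.5.1, Partek 8.0.19.0819 and hg19 are named in the submitters' processing notes, without their roles. The quantifier, the annotation and the use of strand are not given in the sources used here, so overlapping and antisense genes cannot be told apart. When low values were divided by the smallest one, 84.3% to 84.9% came within 0.1 of an integer, which does not allow reads to be recovered, and depth is known only by proxy. The authors' table of TEADi against GFP was not used.

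For 421 symbols with 905 entries, values above the library's smallest value were summed and that value was added once. Exon lengths are unions of exons in GENCODE 29 basic (GRCh38), matched by symbol or RefSeq synonym, and hg19 coordinates were copied from the deposited table. Members, the 29 gene lists, the 10 marker lists and the analysis were chosen with earlier results of these data known. Named were the 25 leaders by CPM, the 12 per length, up to 5 leading members of a list with markers under 1 CPM, and genes that differed most between libraries. Other members, the chromosome 9 scan, the ratios of library A by list and length, and the counts of markers in library C were chosen after their values were seen. Results for a few genes are not reported here. No test was made, since there is 1 group. The code for merging, spread, libraries apart and windows was tested on simulated data. Python 3.11.15, pandas 2.3.3, numpy 2.4.6 and matplotlib 3.10.9 were used.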

Additional observations from a re-analysis of the deposited data

How the results depend on the processing

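List medians moved by at most 1.12 times under equal totals, median-ratio factors or a plain sum of entries. They fell to as low as 0.786 times (histone genes) with the highest entry of a symbol only, and 0.239 times (suprabasal genes, near the smallest value) when the smallest value was subtracted. Setting totals equal raised every gene by 0.13 to 0.17 on the log2 scale. Leaving out a library moved some medians further. Without A they ran from 0.749 times (epithelial genes) to 1.30 times (mitochondrial genes). Without B they ran from 0.718 times (suprabasal genes) to 1.10 times (secreted factors), and without C from 0.791 times (mitochondrial genes) to 1.41 times (epithelial genes). Of 312 medians of gene lists under these alternatives or without a library, 277 stayed within 1 SD of the libraries and 35 moved further. The epithelial and mitochondrial moves counted as within 1 SD, an SD that includes the library left out. Counts of genes that differ between libraries depended on the threshold. The 47 genes with a 2-fold range became 124 with the highest entry only, 492 at a mean of at least 1 CPM, 18 at 100 CPM and 3734 without a filter. Leaving out a library gave 2 (without A) to 40 genes, and a median SD of 0.0595 (without A) to 0.0951. Genes with a library at least 4 times below both others (6, 6 and 16 for A, B and C) became 48, 53 and 55 with the highest entry only, 120, 29 and 60 at 2 times, 84, 41 and 81 without a filter, and 0, 0 and 2 at a mean of at least 5 CPM. At 3 times A had 30 and C 25. The cause was not tested. With other window sizes, tried after seeing the data, the highest window also lay over TLN1 on chromosome 9, with other ends. It ran from CA9 to HINT2 with 9 genes (107 CPM per kb) and from RPP25L to HINT2 with 25 genes (62.7 CPM per kb). Low levels are limited by depth, since 1 read is worth about the smallest value of a library. No paired analysis was possible because the results come from no test on 1 group.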
